A study of Mus musculus with 12 samples.

Results

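The genes described here encode the metalloproteinases that cut proteins outside the cell and their inhibitors: the ADAM, ADAMTS and ADAMTS-like genes, the matrix metalloproteinases (Mmp) and the tissue inhibitors of metalloproteinases (Timp). They were taken by symbol, as every gene whose name begins with Adam, Adamts, Adamtsl, Mmp or Timp followed by its number. This gave 60 genes, of which 54 were listed in both expression tables. The table of muscle stem cells (MuSCs) and myoblasts listed 59 of them among 16503 genes and the table of the Nedd4L genotypes listed 55 among 16169 genes. After a filter of 10 normalized counts in at least 3 libraries, 51 and 52 of them were tested, among 15345 and 15304 tested genes. Of the 51, 3 (Adam1b, Adam23 and Adamts8) passed the filter through the libraries of 1 group alone and so had to differ.

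RNA was sequenced from 1000 cells per library. The first comparison holds 3 WT mice, each with a library of MuSCs lysed straight after sorting (WT MuSC, replicates 4, 5 and 6) and a library of myoblasts grown from its sorted cells for 3 days in serum and bFGF on collagen and detached with trypsin (WT myoblast, replicates 4, 5 and 6). The age of these mice is not given in the sources used here. The second comparison holds freshly sorted MuSCs from male C57BL/6 mice of 5 to 6 weeks, 3 of them WT and 3 Nedd4L-cKO. In the cKO line (Nedd4L fl/fl Pax7 cre/+), Cre is made from the Pax7 locus, so the deletion reaches all cells descended from Pax7 cells, myofibres included. Exon 15 is deleted and the gene is still transcribed. Whether the WT mice carried Cre or floxed alleles is not given in the sources used here. All MuSCs were hindlimb cells released with collagenase and dispase and sorted as ITGA7+/Hoechst+/CD31-/CD45-/CD11b-/SCA1-. Enzyme release before lysis and trypsin before lysis go with the groups, so handling and cell state cannot be told apart in the first comparison. In bulk libraries, fewer cells of a type and less RNA per cell cannot be told apart either.

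These proteases share a zinc-binding active site. ADAMs sit in the cell membrane and shed the outer parts of other membrane proteins, such as growth factors, Notch and its ligands. ADAMTS enzymes are secreted and cut proteoglycans and procollagens, ADAMTS-like proteins keep the binding modules and lack the protease, and MMPs cut collagens, laminins and each other. TIMPs block MMPs, and TIMP3, which stays bound to the matrix, also blocks several ADAM and ADAMTS enzymes. MuSCs lie beneath a basal lamina on the myofibre, which these enzymes remodel when the cells divide and migrate.

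RefSeq promoter windows on GRCm38.p6, from 250 bases before to 50 bases after a transcript start, were at hand for 36 of the 60 genes (40 windows). They were searched on both strands for the GC box GGGCGG, the E-box CAGCTG, the AP-1 motif TGANTCA and the TATA box TATAAA. The GC box was found in 27 of the 40 windows (67.5%), against 35.7% of all 32851 windows, and the E-box in 11 (27.5%), against 16.3%. The AP-1 motif (3 windows, 7.5%) and the TATA box (3 windows, 7.5%) were found about as often as, or less often than, in all windows (7.81% and 13.6%). Another 18 genes of these families had a RefSeq window and were in neither table used here. Of their 19 windows, 10 held the AP-1 motif (52.6%), 13 the TATA box (68.4%), 8 both motifs (42.1%, against 1.54% of all windows) and 0 the GC box. Among them, 7 of the 10 windows of the 9 Mmp genes in the chromosome 9 cluster held both AP-1 and TATA motifs. Of the windows of listed genes, 1 (2.5%) held both, that of Mmp12, which lies in the same cluster. These shares are descriptions of the letters in the windows and no test was made of them.

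**Figure D1:**
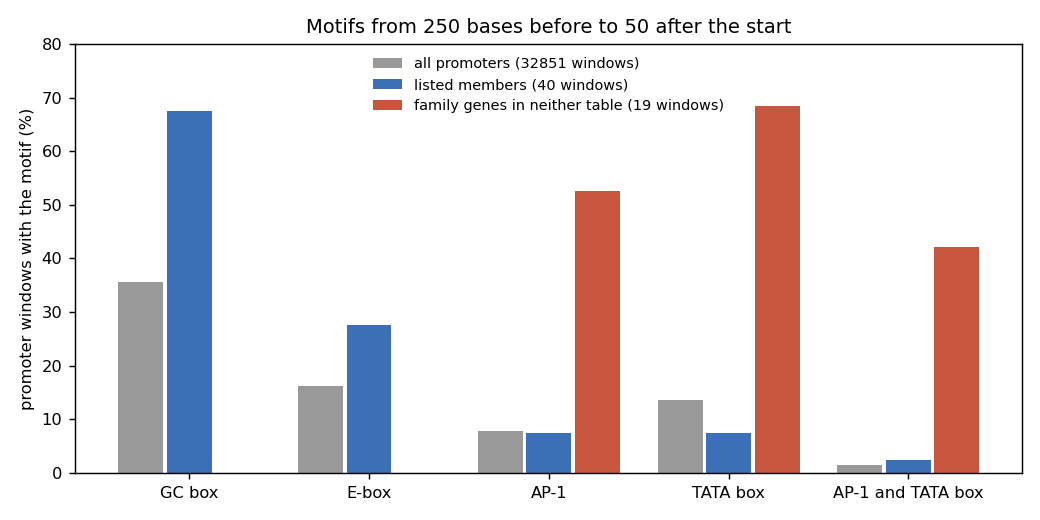
Share of promoter windows (y axis, %) that hold each motif (x axis), in all RefSeq promoters, in the family genes listed in the expression tables and in the family genes in neither table. The GC box stands in 67.5% of the windows of listed genes and the TATA box in 68.4% of the windows of genes in neither table.

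The 120 bases before the start are shown for 4 genes that the results turn on (Timp1, Mmp15, Adamts1 and Timp3) and for 2 genes of the cluster that were in neither table (Mmp3 and Mmp13). Each is written in the direction of transcription, with capitals marking the searched motifs. The 4 listed genes carry GC boxes, Adamts1 beside a TATA box, whereas Mmp3 and Mmp13 carry an AP-1 motif and a TATA box.
Timp1 (chrX:20870046-20870165, plus strand): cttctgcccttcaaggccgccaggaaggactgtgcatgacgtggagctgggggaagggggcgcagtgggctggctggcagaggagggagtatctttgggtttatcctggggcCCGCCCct
Mmp15 (chr8:95352176-95352295, plus strand): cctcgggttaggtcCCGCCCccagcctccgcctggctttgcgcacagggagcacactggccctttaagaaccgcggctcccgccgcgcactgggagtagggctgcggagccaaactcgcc
Adamts1 (chr16:85803114-85803233, minus strand): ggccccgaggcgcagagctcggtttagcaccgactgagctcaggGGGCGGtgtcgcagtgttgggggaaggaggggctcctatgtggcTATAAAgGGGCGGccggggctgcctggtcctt
Timp3 (chr10:86300292-86300411, plus strand): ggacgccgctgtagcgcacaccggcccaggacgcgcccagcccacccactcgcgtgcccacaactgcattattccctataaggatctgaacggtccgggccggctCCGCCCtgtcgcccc
Mmp3 (chr9:7445702-7445821, plus strand): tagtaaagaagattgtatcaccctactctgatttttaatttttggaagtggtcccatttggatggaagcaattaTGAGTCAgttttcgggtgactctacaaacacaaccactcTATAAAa
Mmp13 (chr9:7272394-7272513, plus strand): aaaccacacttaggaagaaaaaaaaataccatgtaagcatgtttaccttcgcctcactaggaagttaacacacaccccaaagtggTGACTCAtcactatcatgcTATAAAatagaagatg

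Values are given as RPM, that is, the authors' normalized counts scaled so that the mean library total is 1e+06. The normalized counts summed to between 33189802 and 37595659 per library in the first comparison and between 40323468 and 50687122 in the second. The read depth of the libraries is unknown. Across all tested genes, myoblast replicate 4 correlated with the other myoblast libraries at 0.951 and 0.949, against 0.988 between replicates 5 and 6. The cells carried their labelled identity: 6 of 8 MuSC markers fell and 6 of 6 commitment genes rose in myoblasts (limma, adjusted p at most 0.05), with Pax7 at 151 to 249 RPM in MuSCs and 17.8 to 21.2 RPM in myoblasts. Of the 7 myofibre markers, 5 rose in myoblasts and their summed level went from 163 to 367 RPM in MuSCs to 8133 to 18060 RPM in myoblasts.

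The first question was which of these enzymes and inhibitors differ between quiescent MuSCs and the myoblasts grown from them. Between the states, 29 of the 51 tested genes passed the test (adjusted p at most 0.05), 14 higher and 15 lower in myoblasts, against 42.8% of all tested genes (22.2% higher and 20.6% lower). With a log2 fold change of at least 1 as well, 26 genes passed (13 in each direction), against 31.8% of all tested genes (17.2% higher and 14.6% lower). The groups did not overlap for 32 of the 51 genes, 15 higher and 17 lower, against 55.2% of all tested genes (28.4% higher and 26.8% lower). The median log2 fold change was 0.11 over the 51 genes and 0.04 over all tested genes. The 29 include Adam1b, Adam23 and Adamts8, which had to differ. Of the 10 roles, 5 held calls in both directions: 1 higher and 1 lower among the secreted MMPs, 3 and 2 among the ADAMs with an active site, 1 and 1 among those without, 2 and 2 among the ADAMTS-like genes and 2 and 1 among the TIMPs. The proteoglycan-cutting ADAMTS genes held 5 lower and 0 higher calls by limma, the other ADAMTS genes 3 lower and 0 higher, the procollagen ADAMTS genes 1 higher, the membrane-bound MMPs 2 higher and the remaining ADAMs 2 higher, and no test was made between roles. Without myoblast replicate 4, 30 of 45 tested genes were called, against 44.3% of all tested genes. Leaving out each library in turn, 17 of the 29 calls held in every fit, and the other 12 are named with the role they belong to. Log2 fold changes are of RPM + 1 and understate changes of genes near 0.

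**Figure D2:**
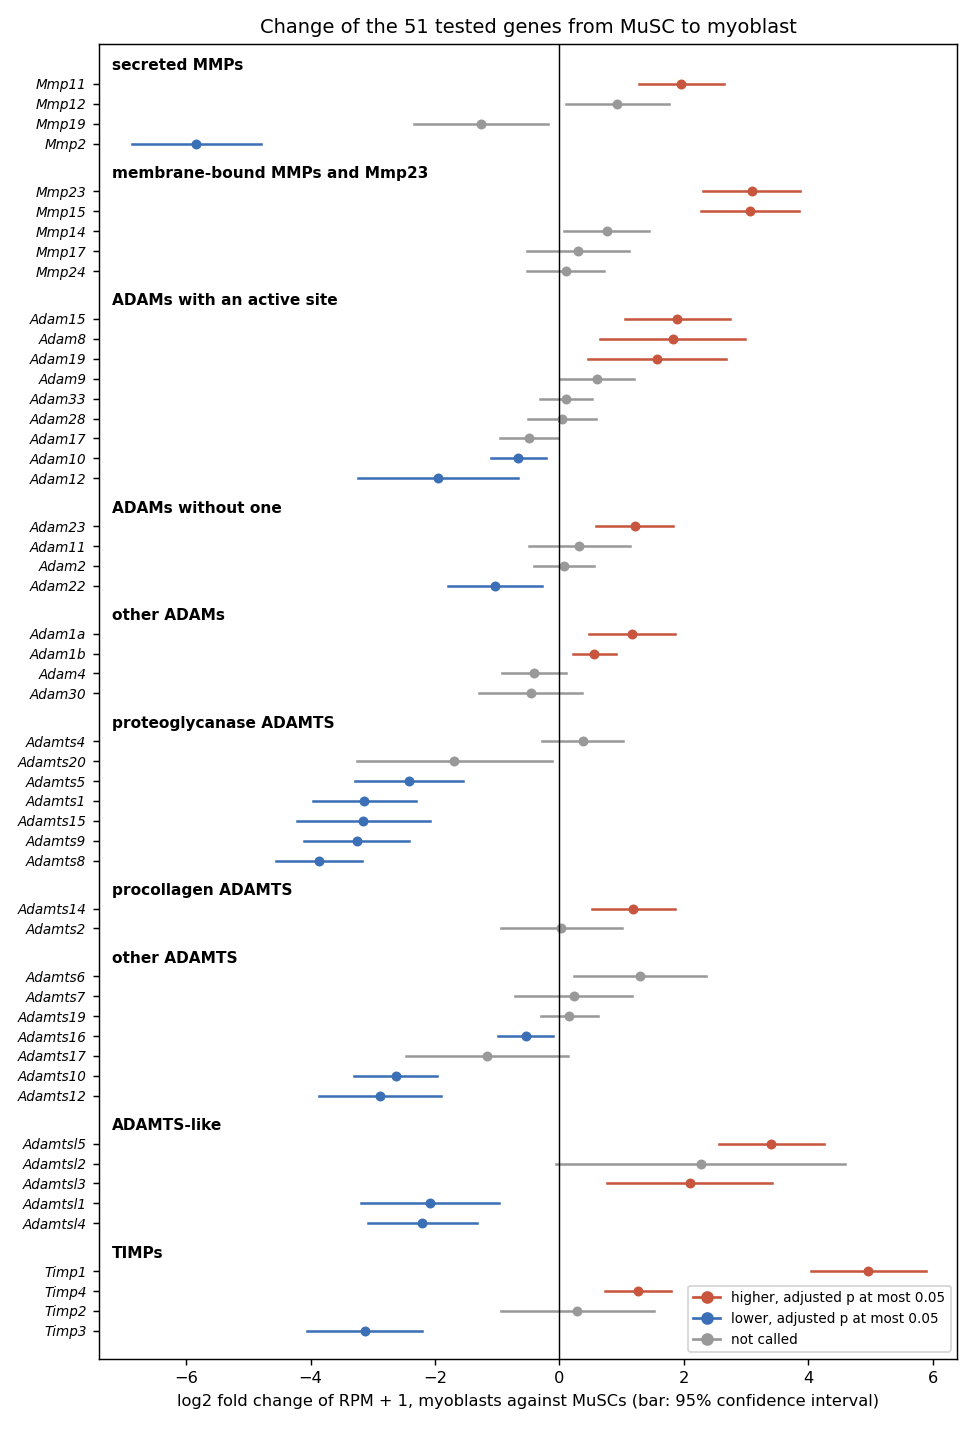
Log2 fold change of RPM + 1 in myoblasts against MuSCs (x axis, bars are 95% confidence intervals) for the 51 tested genes, grouped by role, 3 libraries per group. Of 7 proteoglycanase ADAMTS genes, 5 are called lower, against 20.6% of all tested genes. Among them is Adamts8, which passed the filter through the MuSC libraries alone. Mmp2 (-5.84) and Timp1 (4.97) lie farthest from 0.

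Mmp2 encodes gelatinase A, which cuts collagen IV of the basal lamina, and was the most abundant of these transcripts per length in MuSCs (80.2 RPM per kb of exon ± 31.4, SD, n = 3). It stood at 411, 229.9 and 209 RPM in MuSC replicates 4, 5 and 6 and at 1.62, 3.40 and 8.30 RPM in the myoblasts of the same mice. Every MuSC library was far above every myoblast library, and the mean fell from 283 to 4.44 RPM, a 63.8-fold difference (log2 fold change -5.84 ± 0.46 SE, adjusted p = 2.54e-05). In myoblasts it ranked 19th of 59 per length. Mmp11, which encodes stromelysin 3, a protease activated inside the cell, went the other way, from 4.19, 5.53 and 7.59 RPM to 23.1, 23.2 and 28.4 RPM (log2 fold change 1.96 ± 0.30, adjusted p = 0.00104). The groups did not overlap. The macrophage elastase gene Mmp12 and Mmp19 did not pass the test (adjusted p = 0.0673 and 0.0607). Mmp12 passed with 10 normalized counts asked of every library and with each library scaled to its own total, and Mmp19 was called lower without MuSC replicate 5 (-1.64, adjusted p = 0.0342) or myoblast replicate 6 (-1.54, adjusted p = 0.0466). Mmp9, which encodes gelatinase B, was at or near 0, with a highest value of 0.583 RPM in a MuSC library, and was not tested, as was Mmp28. The summed level of the 6 listed secreted MMPs was 62.5 to 119.8 RPM per kb in MuSCs and 8.05 to 11.4 RPM per kb in myoblasts.

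Membrane-bound MMPs were low in MuSCs apart from Mmp14. Mmp15, which encodes MT2-MMP, stood at 1.16, 2.64 and 2.11 RPM in MuSCs and at 17.3, 27.5 and 26.5 RPM in myoblasts, 12.1-fold higher in the means with no overlap (log2 fold change 3.06 ± 0.35, adjusted p = 0.000188). Mmp23, whose product is cut loose from a membrane anchor, was listed at 0, 0.879 and 0.553 RPM in MuSCs and at 12.6, 11.7 and 9.57 RPM in myoblasts (log2 fold change 3.09 ± 0.34, adjusted p = 0.000171). Mmp14 encodes MT1-MMP, the activator of pro-MMP2, for which TIMP2 serves as a bridge. It stood at 34.7, 52.4 and 45.6 RPM in MuSCs and at 51.3, 110.6 and 72.6 RPM in myoblasts, so the groups overlapped (log2 fold change 0.76 ± 0.30, adjusted p = 0.0708). With the mouse as a block it passed (adjusted p = 0.0388), and it also passed without myoblast replicate 4 (adjusted p = 0.0119). Of the other 2 tested genes of the group, Mmp17 and Mmp24, neither exceeded 2.00 RPM in any library. The summed level of the 7 listed genes was 6.32 to 9.35 RPM per kb in MuSCs and 16.6 to 27.7 RPM per kb in myoblasts.

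Among the inhibitors, Timp1 rose and Timp3 fell. Timp1 stood at 1.06, 4.44 and 4.43 RPM in MuSCs and at 94.9, 144 and 134 RPM in myoblasts. All 3 myoblast libraries were above all MuSC libraries, and the means differed 37.5-fold (log2 fold change 4.97 ± 0.41, adjusted p = 3.19e-05). Timp3 stood at 30.2, 29.0 and 36.7 RPM in MuSCs and at 2.46, 5.64 and 1.30 RPM in myoblasts, 10.2-fold lower in the means with no overlap (log2 fold change -3.13 ± 0.41, adjusted p = 0.000413). Timp4 was near 0 in MuSCs (0.406, 0.343 and 0.486 RPM) and at 2.96, 2.26 and 2.00 RPM in myoblasts (log2 fold change 1.26 ± 0.23, adjusted p = 0.00268). Timp2 was the inhibitor whose libraries disagreed. It stood at 163.5, 129.8 and 149.9 RPM in MuSCs and at 64.0, 387 and 235 RPM in myoblasts, with replicate 4 below and replicates 5 and 6 above every MuSC library. It was not called (log2 fold change 0.29 ± 0.54, adjusted p = 0.694). Without myoblast replicate 4 it was called higher (1.03, adjusted p = 0.00635), and without myoblast replicate 5 the direction turned (-0.26).

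Per length, Timp2 made up 89.5%, 83.2% and 83.1% of the 4 inhibitors' transcripts in MuSC replicates 4, 5 and 6, and 22.6%, 53.8% and 43.4% in the myoblasts. Timp1 made up 1.32%, 6.50% and 5.61% in MuSCs and 76.3%, 45.6% and 56.3% in myoblasts. Timp3 fell from 9.06% to 11.1% of the total to 0.132% to 0.475%. In each mouse the leading share thus passed from Timp2 in MuSCs to Timp1, except in replicate 5, where Timp2 stayed the larger. These shares depend on the length used, which was that of all annotated exons of each gene. The summed level of the 4 genes was 35.0 to 40.9 RPM per kb in MuSCs and 63.5, 161 and 121 RPM per kb in myoblasts.

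**Figure D3:**
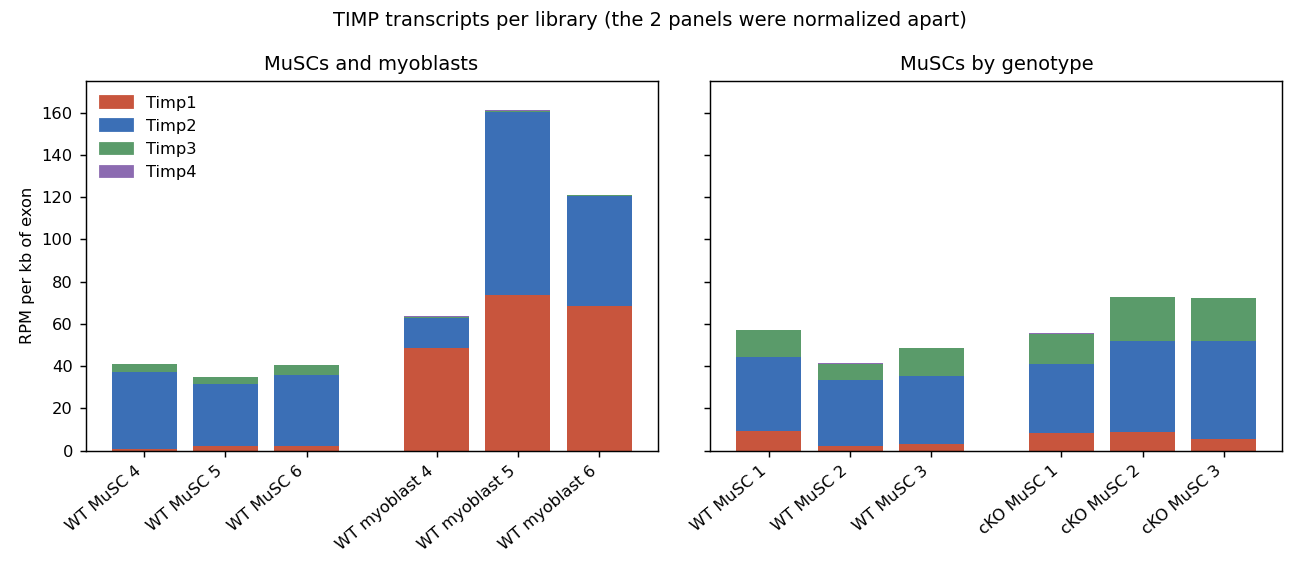
RPM per kb of exon (y axis) of the 4 Timp genes in each of the 12 libraries (x axis), stacked, with MuSCs and myoblasts on the left and the 2 genotypes on the right. Timp1 is 1.32% to 6.50% of the stack in the WT MuSC libraries on the left and 45.6% to 76.3% in the myoblast libraries.

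Of the 7 ADAMTS enzymes that cut versican and aggrecan, 5 were called lower, against 20.6% of all tested genes. Of these 5, Adamts8 had to differ because it passed the filter through the MuSC libraries alone. Adamts1, the third most abundant of these genes per length in MuSCs (26.3 RPM per kb), stood at 188, 108 and 135 RPM in MuSCs and at 8.12, 20.3 and 20.4 RPM in myoblasts, 8.84-fold lower in the means (log2 fold change -3.13 ± 0.37, adjusted p = 0.000234). Adamts5, the main aggrecanase of cartilage, stood at 113.8, 51.9 and 55.0 RPM in MuSCs and at 7.95, 11.9 and 18.2 RPM in myoblasts (log2 fold change -2.42 ± 0.39, adjusted p = 0.00125). Neither gene's groups overlapped. Adamts8, Adamts9 and Adamts15 stood between 5.96 and 29.5 RPM in all MuSC libraries and at 1.82 RPM or less in all myoblast libraries, with log2 fold changes of -3.87 ± 0.30, -3.26 ± 0.37 and -3.15 ± 0.47 (adjusted p = 2.54e-05, 0.000196 and 0.000877). Adamts8 could not be tested when a MuSC library was left out, because it then passed the filter in too few libraries. Adamts4 did not follow the others. It stood at 44.9, 37.7 and 34.5 RPM in MuSCs and at 33.8, 67.9 and 56.2 RPM in myoblasts (log2 fold change 0.37 ± 0.29, adjusted p = 0.317), though without myoblast replicate 4 it was called higher (0.66, adjusted p = 0.0383). Adamts20, the gene of the belted coat mutation, stood at 48.7, 47.2 and 61.6 RPM in MuSCs and at 3.31, 26.0 and 37.4 RPM in myoblasts, with no overlap and a wide spread in culture (log2 fold change -1.69 ± 0.69, adjusted p = 0.0782, or 0.0495 with the mouse as a block). It was called lower without myoblast replicate 4, its lowest library (-0.72, adjusted p = 0.041), and without myoblast replicate 6, its highest in culture (-2.30, adjusted p = 0.0207). The summed level of the 7 genes was 40.4 to 61.1 RPM per kb in MuSCs and 7.95 to 17.6 RPM per kb in myoblasts.

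Several of these genes lie side by side on GRCm39. Adamts1 (chr16:85590579-85600009) and Adamts5 (chr16:85653061-85698716), both on the minus strand, are 53.1 kb apart. Adamts15 (chr9:30810451-30833863, minus strand) and Adamts8 (chr9:30853809-30875134, plus strand) point away from each other across 19.9 kb. All 4 were called lower in myoblasts, against 20.6% of all tested genes. Adamts8 passed the filter through the MuSC libraries alone and so had to differ. Other neighbours within 200 kb were Adam1b and Adam1a on chromosome 5 (15.1 kb) and Adamts13 and Adamtsl2 on chromosome 2 (50.2 kb). Farther apart were Adam5 and Adam9 on chromosome 8 (125 kb) and Adam4 and Adam21 on chromosome 12 (137 kb). Adam1b and Adam1a were both called higher, against 22.2% of all tested genes. Of that pair, Adam1b passed the filter through the myoblast libraries alone and so had to differ. Adamts13 was listed in the genotype table alone, and Adamtsl2 was not called. Adam9 and Adam4 were not called either, and Adam5 and Adam21 were not tested.

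Of the 7 other tested ADAMTS genes, Adamts10, Adamts12 and Adamts16 were called lower and 0 higher, against 20.6% and 22.2% of all tested genes. Adamts10, whose product binds fibrillin microfibrils, stood at 87.6, 76.1 and 60.1 RPM in MuSCs and at 7.77, 15.04 and 11.4 RPM in myoblasts, 6.54-fold lower in the means (log2 fold change -2.63 ± 0.29, adjusted p = 0.00017). Adamts12 fell from 12.6, 4.91 and 16.5 RPM to 0.734 RPM or less in all myoblast libraries (log2 fold change -2.89 ± 0.43, adjusted p = 0.000866). Adamts16 was at 1.06 RPM or less throughout, and its call (adjusted p = 0.0488) was lost with the mouse as a block (adjusted p = 0.0826) and in all but 1 of the fits that left out a library. Of the procollagen N-proteinases, which trim fibrillar procollagens, Adamts14 rose from 18.9, 17.4 and 14.4 RPM to 46.1, 49.7 and 26.9 RPM (log2 fold change 1.19 ± 0.29, adjusted p = 0.0111; adjusted p = 0.0534 without myoblast replicate 5), whereas Adamts2 had a log2 fold change of 0.03 ± 0.43 (adjusted p = 0.958).

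The 5 ADAMTS-like genes moved in different directions. Adamtsl4 (13.2, 12.0 and 14.1 RPM to 1.11, 1.65 and 4.12 RPM) and Adamtsl1 (12.7, 3.47 and 4.83 RPM to 0.476, 0.184 and 1.72 RPM) were lower, with log2 fold changes of -2.20 ± 0.39 and -2.08 ± 0.49 (adjusted p = 0.00209 and 0.0089). Adamtsl5, which binds fibrillins and heparin, was listed at 0, 0.532 and 1.12 RPM in MuSCs and at 16.5, 11.4 and 16.9 RPM in myoblasts (log2 fold change 3.41 ± 0.37, adjusted p = 0.00016). Adamtsl3 rose from 0.0872, 1.54 and 2.96 RPM to 3.75, 15.4 and 9.94 RPM (log2 fold change 2.10 ± 0.58, adjusted p = 0.0186), a call lost without MuSC replicate 4 (adjusted p = 0.0549) or myoblast replicate 5 (adjusted p = 0.0635). Adamtsl2, which lies beside the myoblast fusion gene Mymk and overlaps it on the opposite strand outside the exons, ranged from 0.535 to 24.0 RPM in myoblasts and was not called (log2 fold change 2.27 ± 1.03, adjusted p = 0.104). With the mouse as a block its adjusted p was 0.044, and without myoblast replicate 4 it was 0.00339.

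**Figure D4:**
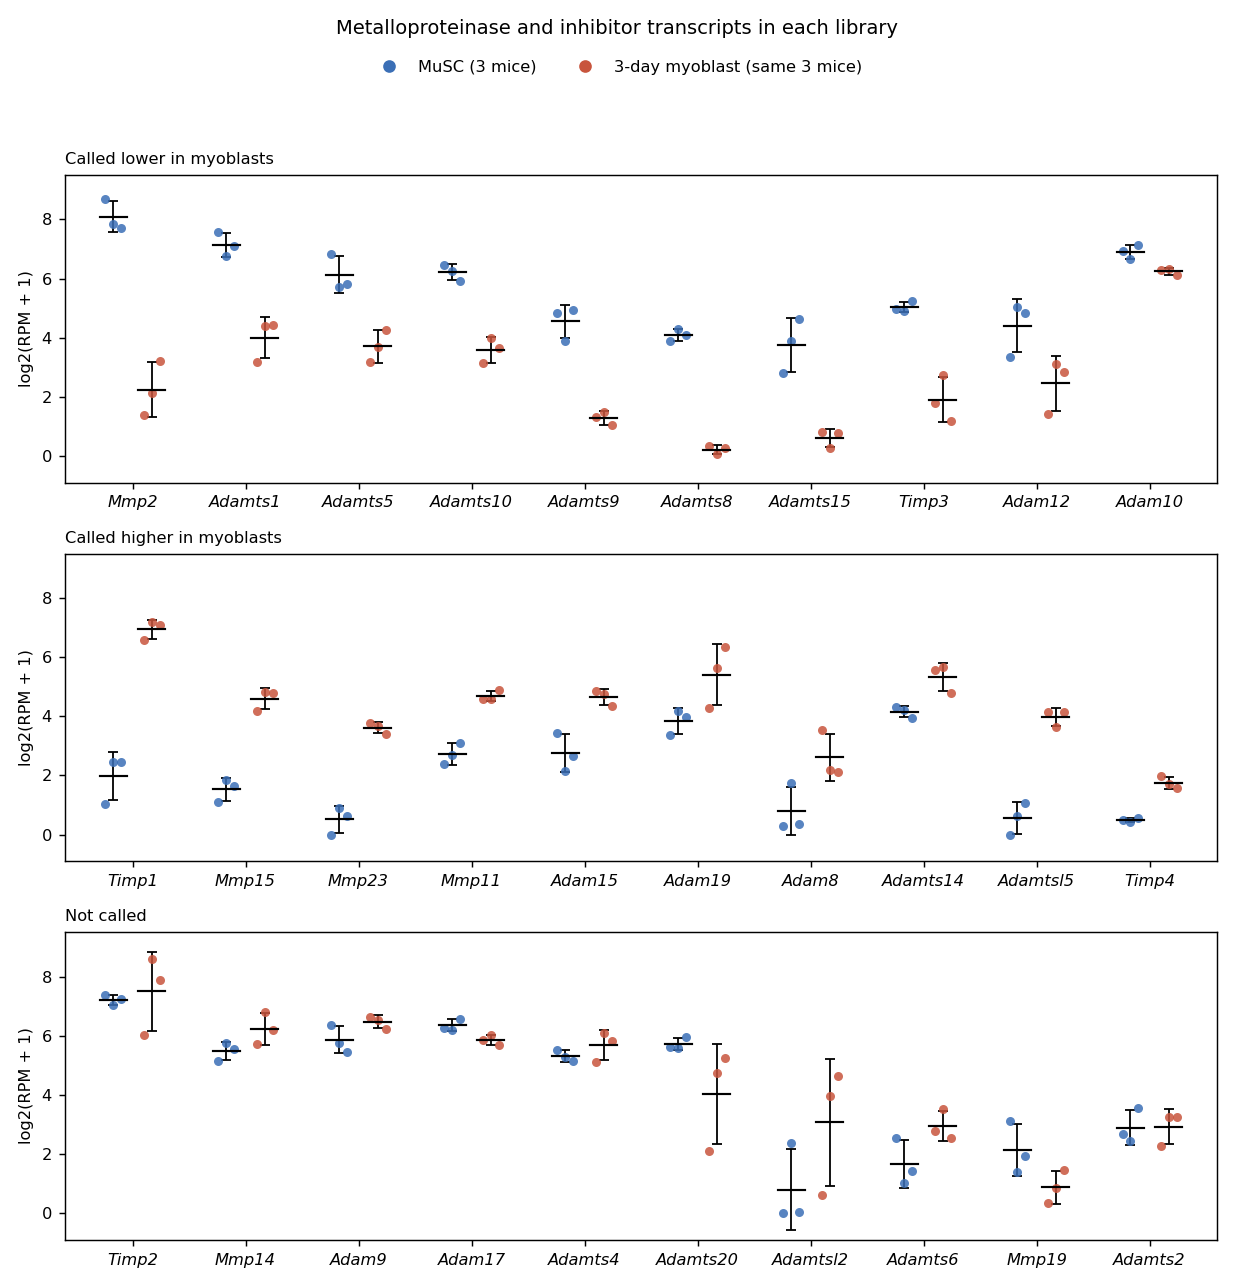
log2(RPM + 1) (y axis) of 30 genes (x axis) in the MuSC and myoblast libraries of the same 3 mice; points are libraries, long ticks are means and bars are SDs. In the top panel all MuSC points lie above all myoblast points, in the middle panel all lie below, and the bottom panel holds genes that were not called, with Timp2 myoblasts on either side of the MuSCs.

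The membrane ADAMs with an active site changed in both directions. Their summed level was 45.2 to 52.6 RPM per kb in MuSCs and 49.8 to 54.4 RPM per kb in myoblasts. Of the 9 tested genes 3 were higher and 2 lower, against 22.2% and 20.6% of all tested genes. Adam10, the main sheddase of Notch and of cadherins, stood at 120.5, 100.4 and 138 RPM in MuSCs and at 78.0, 78.7 and 68.0 RPM in myoblasts, 1.60-fold lower in the means (log2 fold change -0.66 ± 0.20, adjusted p = 0.0243). With the mouse as a block its adjusted p was 0.0528, and leaving out 1 library raised it to as much as 0.0915 (without MuSC replicate 6). Adam17, the sheddase of TNF and of EGF receptor ligands, stood at 75.6, 72.9 and 94.7 RPM in MuSCs and at 56.5, 64.3 and 50.9 RPM in myoblasts, without overlap and without a call (log2 fold change -0.49 ± 0.20, adjusted p = 0.0814). Adam9 stood at 81.1, 53.4 and 43.0 RPM in MuSCs and at 98.2, 92.6 and 73.6 RPM in myoblasts (log2 fold change 0.61 ± 0.26, adjusted p = 0.0931), and without MuSC replicate 4 it was called higher (0.85, adjusted p = 0.0243).

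Adam12, an ADAM long studied in myoblast fusion, was lower after 3 days of culture, although 6 of 6 commitment genes were higher in the same libraries. It stood at 9.30, 31.5 and 27.7 RPM in MuSCs and at 1.65, 7.64 and 6.20 RPM in myoblasts. Replicate 4 was the lowest in both states, and the myoblast libraries of all 3 mice were below their own MuSC library (log2 fold change -1.95 ± 0.57, adjusted p = 0.0223). The call was lost without MuSC replicate 5 (adjusted p = 0.0832) or 6 (adjusted p = 0.0776). Adam19, its close relative, went up, from 9.29, 17.3 and 14.6 RPM to 18.4, 48.3 and 79.5 RPM (log2 fold change 1.57 ± 0.49, adjusted p = 0.0299), and this call was lost without any of MuSC replicates 4 and 6 and myoblast replicates 5 and 6 (adjusted p of 0.0644 to 0.0946). Adam15, which binds integrins through an RGD motif in the human protein, rose from 9.77, 3.47 and 5.39 RPM to 28.05, 25.8 and 19.4 RPM (log2 fold change 1.90 ± 0.37, adjusted p = 0.00372). Adam8 rose from 0.233, 2.34 and 0.273 RPM to 10.5, 3.58 and 3.37 RPM (log2 fold change 1.82 ± 0.52, adjusted p = 0.02), and the call was lost without MuSC replicate 4 (adjusted p = 0.0658) or 6 (adjusted p = 0.073).

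Among ADAMs without a working active site, which act as adhesion proteins, Adam22 fell from 3.76, 6.16 and 6.80 RPM to 1.70, 2.70 and 2.09 RPM (log2 fold change -1.04 ± 0.33, adjusted p = 0.0338), a call lost in 5 of the 6 fits without 1 library (adjusted p of up to 0.103). Adam23 rose from 0.281 RPM or less to 0.923, 1.95 and 2.67 RPM (log2 fold change 1.21 ± 0.27, adjusted p = 0.00688). Adam1a, a sperm protein gene, rose from 1.23, 1.26 and 2.10 RPM to 4.90, 3.93 and 5.03 RPM (log2 fold change 1.16 ± 0.31, adjusted p = 0.0144; adjusted p of 0.0512 without MuSC replicate 5 and 0.0567 without myoblast replicate 6). Its neighbour Adam1b was listed at 0 in all MuSC libraries and at 0.446, 0.3997 and 0.594 RPM in myoblasts. Both Adam23 and Adam1b fell under the filter without any 1 myoblast library. Adam1b, Adam23, Adamts16, Adamts20, Adamtsl1, Adamtsl2 and the uncalled Adam4, Adamts4, Mmp12, Mmp17, Mmp19 and Mmp24 were named after their values were seen. The 8 listed genes that were not tested (Adam5, Adam21, Adamts3, Adamts18, Mmp9, Mmp16, Mmp25 and Mmp28) did not exceed 2.11 RPM in any library.

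Ordered per length, Mmp2, Timp2, Adamts1 and Adam10 led in MuSCs (80.2 ± 31.4, 33.1 ± 3.80, 26.3 ± 7.48 and 21.5 ± 3.40 RPM per kb, SD, n = 3). Timp1, Timp2, Adam9 and Adam10 led in myoblasts (63.4 ± 13.2, 51.2 ± 36.2, 20.3 ± 2.97 and 13.4 ± 1.08 RPM per kb). Neighbours in these orders overlapped between libraries, apart from Mmp2 above Timp2 in MuSCs and Adam9 above Adam10 in myoblasts. The reads do not mark strand, so transcripts that share exonic bases with these genes on the opposite strand cannot be told apart from them. Such overlap reached 24.3% of the exonic length of Mmp2 (with Gm45472), 21.3% of Timp3 (with Syn3, inside which it lies), 14.7% of Timp4 (with Syn2), 31.1% of Adam22 (with Sri), 30.6% of Mmp19 (with Tmem198b), 17.2% of Adam15 and 11.6% of Adamts8.

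Some markers of fibroblasts were lower in myoblasts, as were Mmp2, Timp3 and several ADAMTS genes. Of 8 fibroblast markers, 7 were tested. Dpt, Dcn, Col15a1 and Gsn were lower and Ly6a higher in myoblasts, against 20.6% and 22.2% of all tested genes. Pdgfra and Pi16 were not called (limma, adjusted p = 0.919 and 0.511), and Lum was not tested. The summed level of the list was 1402 to 1847 RPM in MuSCs and 136 to 179.5 RPM in myoblasts. Dpt stood at 411, 461 and 507 RPM in MuSCs and was listed at 0 in all myoblast libraries. Of the same list, Pdgfra (2.39, 0 and 1.18 RPM) and Ly6a (0, 0.428 and 0.0271 RPM) were at or near 0 in MuSCs. Ly6a encodes SCA1, and the sort left out SCA1+ cells. In the endothelial list, where Kdr, Cldn5 and Emcn were not listed, Tek fell from 25.6 to 34.8 RPM in MuSCs to 0.0365 to 0.921 RPM in myoblasts (log2 fold change -4.48, adjusted p = 2.4e-05). Pecam1 was not called (9.45 to 16.0 RPM in MuSCs and 7.48 to 12.8 RPM in myoblasts, adjusted p = 0.385), and Cdh5 was not tested. In the leukocyte list, which summed to no more than 7.24 RPM, Itgam was called higher and Cd68 and Cd79a lower, with Ptprc at 0.533 RPM or less. The mural list summed to 1096 to 1405 RPM in MuSCs and 1655 to 2415 RPM in myoblasts, nearly all of it Acta2, and Kcnj8 was called lower (-1.97, adjusted p = 0.000244). In the tendon cell list (10.9 to 11.5 RPM in MuSCs and 23.1 to 106.8 RPM in myoblasts), Scx was called higher (2.46, adjusted p = 0.00526) and Mkx was not, and the Schwann cell list held 2 tested genes and 0 called. The part of other cell types in these results was not tested.

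Genes that activate, hold or oppose these proteases changed in both directions. Of 15 tested activators and partners, 6 were higher and 5 lower, against 22.2% and 20.6% of all tested genes. Frmd8, which stabilizes the iRhom and ADAM17 complex, rose from 12.0, 8.05 and 12.1 RPM to 66.7, 115.8 and 67.3 RPM (log2 fold change 2.82 ± 0.30, adjusted p = 0.000134), whereas the iRhom gene Rhbdf2 fell from 38.1, 19.5 and 13.9 RPM to 4.73, 5.36 and 8.87 RPM (log2 fold change -1.68 ± 0.41, adjusted p = 0.0106). The more abundant iRhom gene Rhbdf1 was not called (means of 78.0 RPM in MuSCs and 81.9 RPM in myoblasts, limma, adjusted p = 0.914). Of the tetraspanins that escort ADAM10, Tspan15 fell from 147, 286 and 244 RPM to 19.96, 15.8 and 20.3 RPM (log2 fold change -3.48, adjusted p = 2.54e-05) and Tspan17 fell (-1.29), while Tspan33 rose from 1.30, 1.77 and 1.27 RPM to 23.1, 45.4 and 43.5 RPM (log2 fold change 3.92, adjusted p = 4.98e-05) and Tspan14 rose (1.23). Tspan5 was not called (1.05, adjusted p = 0.0802). Of the proprotein convertases that activate many of these enzymes, Furin (1.13) and Pcsk6 (2.02) rose and Pcsk5 fell (-3.63). Reck, a membrane inhibitor of MMPs, fell (-1.72), and the clearance receptor gene Lrp1 rose (0.75).

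In the plasminogen and astacin list, 4 of 9 tested genes were lower and 1 higher, against 20.6% and 22.2% of all tested genes. The activators Plau and Plat each fell by 2.84 on the log2 scale (adjusted p = 0.000165 and 0.00239) and the procollagen C-proteinase gene Bmp1 by 1.75, while the urokinase receptor gene Plaur rose (1.19, adjusted p = 0.0406). Of the EGF receptor ligands shed by ADAMs, Areg (2.31), Hbegf (1.87) and Tgfa (1.03) rose among 6 tested, against 22.2% of all tested genes. Hbegf stood at 34.7, 5.80 and 6.23 RPM in MuSCs and 37.3 to 56.0 RPM in myoblasts. Tgfa did not exceed 2.41 RPM in any library. Of the lecticans and link proteins that ADAMTS enzymes act on, 4 were tested. Hapln4 was higher and Hapln2 lower, against 22.2% and 20.6% of all tested genes, each at no more than 2.76 RPM in any library. Vcan (versican) was not called (0.842 to 16.6 RPM in myoblasts, adjusted p = 0.363).

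The second question was whether loss of Nedd4L changes these genes in freshly sorted MuSCs. Nedd4l itself stood at 70.2, 96.4 and 66.7 RPM in WT replicates 1, 2 and 3 and at 30.2, 36.3 and 22.5 RPM in Nedd4L-cKO replicates 1, 2 and 3, lower in each cKO library (log2 fold change -1.37, adjusted p = 0.0467). By the study's thresholds (adjusted p at most 0.05, a change of 1 or more on the log2 scale and 5 RPM or more on average), 1 of the 52 tested genes was called, against 0.653% of all tested genes. It was lower in cKO (0.203% of all tested genes), and 0 were higher by limma (0.451%). The study applied its thresholds to DESeq2 results with another adjustment of p, so its calls need not match those of limma. At an unadjusted p under 0.05 there were 6 of 52 genes (11.5%), 3 higher and 3 lower, against 14.6% of all tested genes (7.51% higher and 7.13% lower). The share of these genes was thus near that of all genes, and the median log2 fold change was -0.01, against 0.00152 over all tested genes.

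The called gene was Adamtsl1, which encodes punctin, a secreted matrix protein without protease activity. It stood at 17.8, 13.7 and 18.6 RPM in WT MuSCs and at 6.36, 1.43 and 1.09 RPM in cKO MuSCs. All WT libraries were above all cKO libraries, and the means differed 5.65-fold (log2 fold change -2.39 ± 0.46 SE, adjusted p = 0.0442). The call was lost without any of WT replicates 1, 2 and 3 (adjusted p = 0.0894, 0.0846 and 0.0534) and without cKO replicates 2 or 3 (adjusted p = 0.147 and 0.0841), and it held without cKO replicate 1, the highest cKO library.

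Mmp2 and Adam12 came closest among the genes that were not called. Mmp2 stood at 319, 214 and 233 RPM in WT and at 116, 126 and 98.2 RPM in cKO MuSCs, 2.25-fold lower in the means without overlap (log2 fold change -1.15 ± 0.25, adjusted p = 0.0638). It passed when each library was scaled to its own total (adjusted p = 0.0289) and when 10 normalized counts were asked of every library (adjusted p = 0.0353), and over all alternatives its adjusted p reached 0.203. Per length it was the most abundant of these genes in WT MuSCs (72.3 RPM per kb ± 15.9) and ranked the third in cKO MuSCs (32.1 ± 4.03). Adam12 stood at 8.74, 6.401 and 18.2 RPM in WT and at 26.2, 33.3 and 40.5 RPM in cKO MuSCs, 3.00-fold higher in the means without overlap (log2 fold change 1.60 ± 0.37, adjusted p = 0.0729). Without WT replicate 3, the highest WT library, it was called (1.99, adjusted p = 0.0232).

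The other genes with an unadjusted p under 0.05 were Adamts10, Timp3 and Adamts12. Adamts10 stood at 43.5, 62.0 and 29.1 RPM in WT and at 15.9, 19.5 and 25.7 RPM in cKO MuSCs (log2 fold change -1.07 ± 0.32, adjusted p = 0.165). Timp3 stood at 103, 64.9 and 107 RPM in WT and at 116, 169 and 166 RPM in cKO MuSCs (log2 fold change 0.72 ± 0.28, adjusted p = 0.271). Adamts12 was nearly level in WT MuSCs (11.9, 12.1 and 12.3 RPM) and stood at 16.0, 23.6 and 22.1 RPM in cKO MuSCs (log2 fold change 0.70 ± 0.29, adjusted p = 0.296). The groups of these 3 genes did not overlap either, as was the case for 11 of the 52 genes (21.2%), 6 higher and 5 lower, and for 19.3% of all tested genes (9.75% higher and 9.59% lower).

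**Figure D5:**
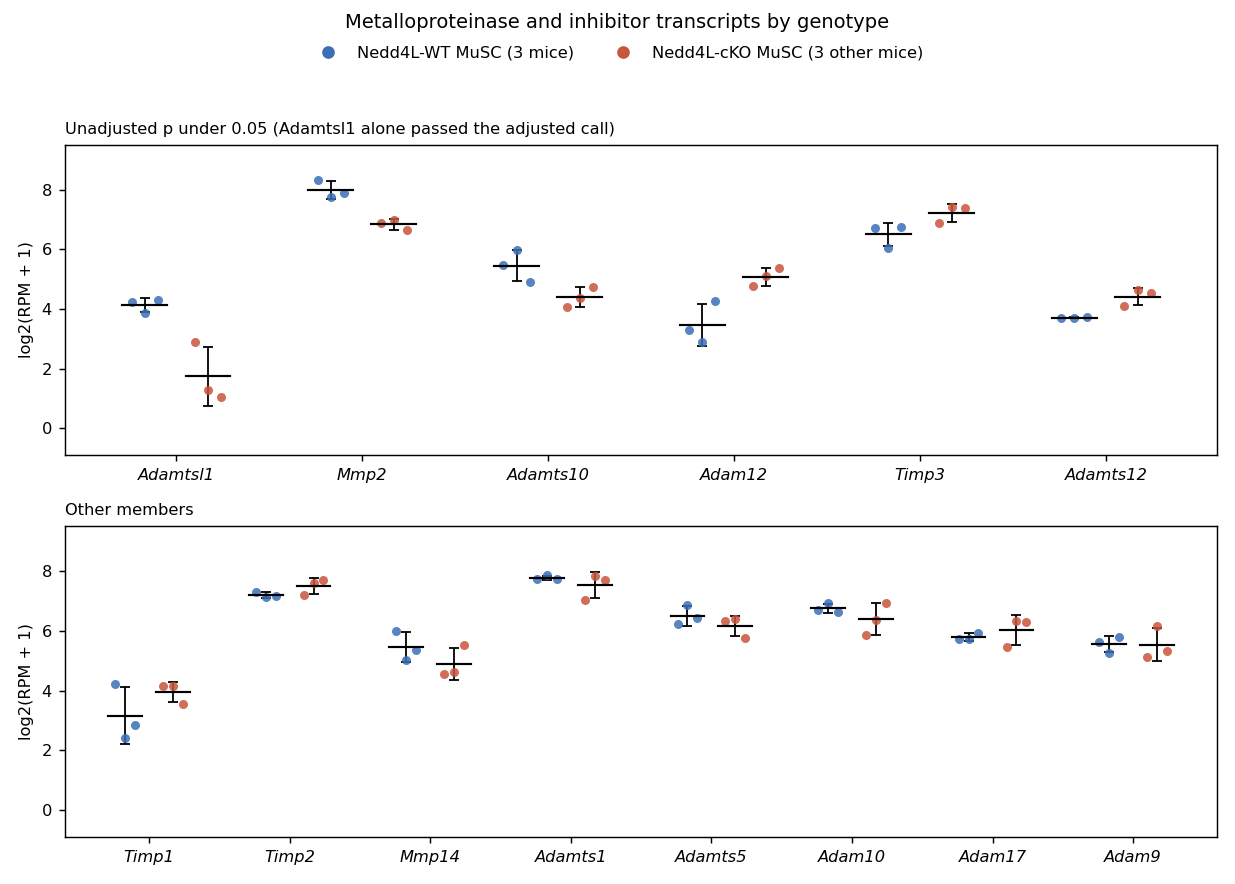
log2(RPM + 1) (y axis) of 14 genes (x axis) in MuSC libraries of 3 WT and 3 Nedd4L-cKO mice; points are libraries, long ticks are means and bars are SDs. Adamtsl1, Mmp2 and Adamts10 are lower and Adam12, Timp3 and Adamts12 higher in all cKO libraries, and Adamtsl1 alone passed the test.

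The remaining named genes did not separate the genotypes. Timp1 stood at 17.8, 4.31 and 6.24 RPM in WT and at 16.6, 16.8 and 10.8 RPM in cKO MuSCs (log2 fold change 0.78, 95% confidence interval -0.19 to 1.76), and Timp2 at 158, 138.6 and 144 RPM against 145, 193 and 206 RPM (0.29, -0.24 to 0.82). Mmp14 stood at 63.2, 31.7 and 39.7 RPM against 22.4, 23.4 and 44.6 RPM (-0.57, -1.32 to 0.18). Among the ADAMTS genes, Adamts1 stood at 212, 230.3 and 214 RPM against 129, 227 and 209 RPM (-0.26, -0.84 to 0.32) and Adamts5 at 73.1, 114.9 and 85.2 RPM against 78.5, 84.1 and 53.2 RPM (-0.34, -0.94 to 0.27). The sheddase genes Adam10 (-0.36, -1.002 to 0.28), Adam17 (0.23, -0.40 to 0.86), Adam9 (-0.03, -0.71 to 0.65), Adam15 (-0.18, -1.06 to 0.69) and Adam19 (0.15, -0.50 to 0.79) were not called. All of these intervals include 0.

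By role, the summed level of the secreted MMPs, most of it Mmp2, was 93.3, 62.8 and 69.1 RPM per kb in WT and 35.3, 38.7 and 32.7 RPM per kb in cKO MuSCs. The summed level of the TIMPs was 57.1, 41.6 and 48.5 RPM per kb in WT and 55.5, 72.6 and 72.1 RPM per kb in cKO MuSCs, and all 4 inhibitors had a positive log2 fold change (median 0.51) without a call. The ADAMTS proteoglycanases summed to 63.8 to 72.5 RPM per kb in WT and 49.8 to 71.7 RPM per kb in cKO MuSCs. Of the pathway lists, 0 of 15 activators and partners, 0 of 3 tested lecticans and link proteins and 0 of 5 EGF receptor ligands were called by limma. In the plasminogen and astacin list, 1 of 8 was called, Serpine2, which encodes protease nexin-1, an inhibitor of thrombin and plasminogen activators. It stood at 81.5, 82.7 and 108 RPM in WT and at 353, 380.3 and 168 RPM in cKO MuSCs (log2 fold change 1.64 ± 0.32, adjusted p = 0.0445).

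All 6 markers of vessel-wall (mural) cells were tested and 0 were called by limma. Their summed level was 1177 to 1935 RPM in WT and 2160 to 3258 RPM in cKO MuSCs without overlap, with none of the 6 at 0. Acta2, at 513 to 949 RPM in WT and 993 to 1661 RPM in cKO, did not overlap, nor did the low Myh11, whereas Rgs5 (280 to 1034 and 355 to 1945 RPM), Kcnj8, Abcc9 and Cspg4 overlapped. The fibroblast list summed to 1539 to 2451 RPM in WT and 1214 to 3104 RPM in cKO MuSCs, with Pdgfra at 1.34 RPM or less in every library. Dcn, of the same list, was uneven, at 1091, 193 and 1237 RPM in WT and 2208, 672 and 210 RPM in cKO MuSCs. The tendon cell, MuSC and commitment lists overlapped as well, and 0 of their genes were called. The tendon cell list summed to 151.7 to 1135 RPM in WT and 248.5 to 897 RPM in cKO MuSCs. The myofibre list did not overlap (172 to 358 RPM in WT and 400.0 to 475 RPM in cKO MuSCs, 0 of 7 called). The endothelial gene Tek stood at 19.1 to 28.4 RPM in cKO and 40.9 to 79.6 RPM in WT MuSCs and was not called (limma, adjusted p = 0.0729). Pecam1, the other listed endothelial gene, went the other way, with means of 31.8 RPM in cKO and 18.7 RPM in WT MuSCs. Its groups overlapped and it was not called (log2 fold change 0.65, limma, adjusted p = 0.429). The leukocyte list summed to 2.97 to 39.9 RPM in WT and 2.98 to 10.4 RPM in cKO, and the Schwann cell list to 16.8 to 36.9 and 3.75 to 23.9 RPM. The part of mural or myofibre RNA in the Adam12, Timp3 and Adamts12 values, which are higher in the same libraries, was not tested.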

How the data were processed

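RNA of 1000 sorted or cultured cells per library was sequenced in 75-base single-end reads, with 3 libraries in each of 4 groups. The authors pseudoaligned the reads with kallisto 0.46.1 to GENCODE vM28 transcripts, summed them per gene and deposited DESeq2-normalized counts (a signal per gene, not raw counts), in 2 tables normalized separately. The deposited fold changes and p-values of the authors' own comparisons were not used. Read depth is unknown, so no counting interval is given.

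Groups came from the sample labels. Values were divided by the mean library total (RPM) and log2(RPM + 1) was tested with limma 3.58.1 in R 4.3.3 (trend and robust), within each table, over every gene that reached 10 normalized counts in 3 or more libraries, with Benjamini-Hochberg adjustment. The planned test suited normalized values, since a count model could not be used on them. A call between MuSCs and myoblasts needed an adjusted p no higher than 0.05. Calls between genotypes also needed a change of 1 or more on the log2 scale and 5 RPM or more on average. Levels per kb used the merged length of all annotated exons of a gene in a GRCm39 annotation. The transcripts expressed may be shorter, so ranks and shares per length depend on the annotation. Promoter windows were RefSeq GRCm38.p6, and coordinates of the 2 builds were kept apart. Python 3.11.15, pandas 2.3.3, numpy 2.4.6 and matplotlib 3.10.9 were used, and the scripts were tested on simulated data.

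The genes, roles, markers and pathway lists were chosen with earlier results of these data known. The values of 1 gene of a pathway list are not reported here. Named genes were a fixed list (Adam9, 10, 12, 15, 17, 19, Adamts1, 5, Mmp2, 9, 14 and Timp1 to 4), the most abundant gene of each role, up to 10 called genes per direction between MuSCs and myoblasts (no overlap, at least 5 RPM in 1 group mean), and in the genotypes the called genes and up to 10 with an unadjusted p under 0.05. MuSCs and myoblasts of 1 number come from the same mouse, which pairs them. Deviations from the group means of the same mouse correlated at -0.03, -0.01 and 0.02. Same-numbered genotype libraries come from different mice. Alternatives were other pseudocounts, filters and scalings, limma without trend and robust, the replicate block and each library left out.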

Additional observations from a re-analysis of the deposited data

How the results depend on the processing

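Between MuSCs and myoblasts, 21 to 30 of the genes were called under every alternative, of 30 to 59 tested. Leaving out each library gave 21 to 30 of 45 to 49 tested. The share of all tested genes called was 31.8% to 44.3% in both cases. Scaling each library to its own total called 18 higher and 12 lower, against 14 and 15. It called 43.0% of all tested genes, against 42.8%, and moved the median log2 fold change of all genes from 0.04 to 0.14. With the mouse as a replicate block, which pairs the libraries, 30 genes were called, 16 higher and 14 lower, against 39.6% of all tested genes. Of the 30, 27 were among the 29. Mmp14, Adamts20 and Adamtsl2 were gained and Adam10 and Adamts16 lost, and the block changed no other call. Timp2 ranged from -0.26 (without myoblast replicate 5) to 1.03 (without myoblast replicate 4). Between the genotypes, where 1 gene was called, 0 were called with a pseudocount of 0.1, with no filter and without trend and robust, 3 (Adam12, Adamtsl1 and Mmp2) with 10 normalized counts in every library and 2 (Adamtsl1 and Mmp2) with each library scaled to its own total, and 0 to 1 when a library was left out. Without WT replicate 3 the called gene was Adam12. The cause was not tested. The replicate block on the genotype numbers, which share only a number (deviation correlations of 0.02, -0.02 and -0.18), also called 1. Genotype genes near 0 change turned sign without 1 library: over the fits that left out a library, the log2 fold change ranged from -0.34 to 0.18 for Adam9, from -0.36 to 0.11 for Adamts2, from -0.29 to 0.44 for Adamtsl3 and from -0.19 to 0.54 for Timp4. With 3 mice per group, and p-values that measure the spread between these libraries, small changes of low genes cannot be resolved.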

Other observations

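The WT MuSCs of the 2 tables are different samples, normalized apart, so their levels are set side by side without a test. Over the 54 genes listed in both, the mean log2(RPM + 1) correlated across genes at a Pearson r of 0.945 and a Spearman rho of 0.895, and genes are not independent replicates. Mmp2 stood at 283 and 255 RPM, Timp2 at 148 and 147 RPM, Mmp14 at 44.2 and 44.9 RPM and Adam10 at 119.7 and 107 RPM in the tables of MuSCs with myoblasts and of the genotypes. Timp3 (32.0 and 91.5 RPM), Timp1 (3.31 and 9.44 RPM), Adamtsl3 (1.53 and 12.5 RPM) and Adam23 (0.190 and 3.49 RPM) were lower in the first table. So was Adamtsl1 (7.01 and 16.7 RPM), the gene called between the genotypes. Adam12 (22.8 and 11.1 RPM), Adamts10 (74.6 and 44.9 RPM) and Adamts14 (16.9 and 8.24 RPM) were among the genes higher in the first table. Rgs5, a mural marker, stood at 4.44 to 16.6 RPM in WT MuSCs of the first table and at 280 to 1034 RPM in those of the second. The fibroblast markers differed both ways. Dcn (5.75 to 46.1 and 193 to 1237 RPM) and Lum (means of 1.05 and 24.6 RPM) were lower in the first. Dpt (means of 460 and 361 RPM) and Gsn (1111 and 761 RPM) were higher in the first. The tendon cell markers Tnmd and Fmod were listed in the second alone (means of 266 and 325 RPM). The part of other cell types in these differences was not tested.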
